A study of Mus musculus with 36 samples.

Results

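The 8 genes described here are signals, receptors and regulators of the Nodal branch of the TGF-beta family: Nodal, Gdf3, Lefty1, Lefty2, Tdgf1, Acvr2b, Smad7 and Skil. They were taken by name from a table of RNA-seq counts for 49671 genes of mouse embryonic stem cells (mESCs), and all 8 were among the 17702 genes with enough counts to enter the test. The cells, labelled 129m wt, were grown on fibronectin-coated StemBond hydrogels, which are soft or stiff polyacrylamide gels with covalently tethered matrix protein, or on tissue culture plastic (TCP). On both hydrogels the groups were serum + LIF for 24 h or for 48 h, and, for 48 h, serum with neither factor, with both, or with PD03 alone, and on TCP serum + LIF at 48 h. There were 6 libraries for soft substrates in serum + PD03 and 3 for each of the other 10 groups. Serum was in every medium. LIF is a cytokine that sustains mESC self-renewal through STAT3, and PD03 is the MEK inhibitor PD0325901, which blocks the kinase above ERK. The sources used here do not say that libraries of a group came from separate cultures, so the p-values measure only the spread between these libraries.

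Nodal and its relative Gdf3 are secreted ligands that bind type II and type I activin receptors together with a co-receptor of the EGF-CFC family. The receptors phosphorylate Smad2 and Smad3, which enter the nucleus with Smad4 and act with partners such as Foxh1. The pathway switches on its own antagonists, so that Lefty proteins, inhibitory Smads and co-repressors close negative feedback loops. In the early mouse embryo Nodal signalling maintains the epiblast and patterns the body axes, and in mESCs Lefty1 and Lefty2 are widely used as its target genes.

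Lefty1 and Lefty2 are neighbours on chromosome 1 of GRCm38, Lefty1 at 180935022 to 180938400 and Lefty2 at 180893108 to 180899103, both on the plus strand and both with 4 blocks of exon. Their coding sequences are each 1104 bases long and identical at 1014 of these positions, 91.8%. The longest stretch shared by their transcripts is 140 bases, and 17.9% of all 50-base windows of the Lefty1 transcript also occur in Lefty2. For Lefty1 the share was 28.8% with 25-base and 4.80% with 100-base windows. Of the 50-base windows of Lefty2, 11.6% also occur in Lefty1. A read that lies within a shared window cannot be given to either gene by sequence alone. The setting used for such reads was not stated, so a share of the reads of the pair may be missing or misplaced.

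Of the 8 genes, promoter windows from RefSeq on GRCm38.p6 (250 bases before to 50 after the start) are given for Tdgf1, Acvr2b and Nodal. With PD03, Tdgf1 and Acvr2b fell and Nodal rose, as given below. A link between these windows and that response was not tested, and windows of the other genes are not shown. Capitals mark the Smad element CAGAC or its reverse complement GTCTG, searched on both strands.
Tdgf1, chr9:110946109-110946408, minus strand: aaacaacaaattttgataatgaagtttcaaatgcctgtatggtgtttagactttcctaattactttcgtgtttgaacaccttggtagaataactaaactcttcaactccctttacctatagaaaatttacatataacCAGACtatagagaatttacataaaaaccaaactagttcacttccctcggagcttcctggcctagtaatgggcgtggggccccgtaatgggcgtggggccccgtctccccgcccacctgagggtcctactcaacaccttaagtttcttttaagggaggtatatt
Acvr2b, chr9:119401928-119402227, plus strand: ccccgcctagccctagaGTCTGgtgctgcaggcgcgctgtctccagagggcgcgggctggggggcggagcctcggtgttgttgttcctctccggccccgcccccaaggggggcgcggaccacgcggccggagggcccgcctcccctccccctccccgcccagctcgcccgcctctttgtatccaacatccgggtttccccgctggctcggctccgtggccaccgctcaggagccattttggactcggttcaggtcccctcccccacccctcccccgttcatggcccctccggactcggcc
Nodal, chr10:61417722-61418021, plus strand: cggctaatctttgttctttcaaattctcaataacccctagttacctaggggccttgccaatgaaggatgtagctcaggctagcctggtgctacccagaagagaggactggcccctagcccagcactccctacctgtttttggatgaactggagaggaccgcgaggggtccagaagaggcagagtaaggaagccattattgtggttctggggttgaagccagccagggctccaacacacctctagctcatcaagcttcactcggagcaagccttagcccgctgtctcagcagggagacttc
Tdgf1 held the element once on its own strand, 113 bases before the start, and Acvr2b on the opposite strand, 233 bases before the start. Nodal had no match in this window. The same letters occurred in 49.6% of 32851 promoters of that length, so a match is a description and not a binding site. Neither the palindromic form GTCTAGAC, found in 0.213% of all promoters, nor the Foxh1 element AATCCACA, found in 0.855%, occurred in these windows.

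Total counts ranged from 10405696 to 26635239 per library. The 5 ES cell markers (Pou5f1, Nanog, Sox2, Zfp42 and Esrrb) were detected in every library, with a summed level of 1657 to 3017 CPM (counts scaled to the size of each library), against 24.98 to 96.5 for 6 fibroblast markers. Of the fibroblast markers, Col1a1 ranged from 9.75 to 79.2 CPM over all libraries, and Thy1, the next highest, reached 13.7. Sums of markers here and below were not split by gene, so 1 gene can carry much of a list. The sample descriptions also gave an SLX identifier, here called a pool. All 24 h libraries, all TCP libraries and 1 of the 3 stiff 48 h libraries in serum + LIF were in the first pool. The other stiff 48 h libraries were in the second, with 2 of the 6 soft libraries in serum + PD03, and the remaining soft 48 h libraries in the third. Columns of the table named the group but not the sample, so which stiff library shared the pool of the TCP libraries is not known.

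Per base of exon, Tdgf1 was the most abundant of the 8. Averaged over the 11 groups, its level was 109 RPKM (CPM per kilobase of merged exon), followed by Gdf3 with 56.5, Nodal with 21.98, Skil with 20.4, Smad7 with 18.7, Lefty2 with 17.7, Lefty1 with 13.1 and Acvr2b with 10.99. The genes differed in how far they moved between groups. The highest group mean was 5.62 times the lowest for Lefty1, 5.34 times for Lefty2, 4.45 times for Skil and 2.73 times for Smad7. It was 1.60 times for Nodal, 1.37 times for Tdgf1, 1.28 times for Acvr2b and 1.21 times for Gdf3. When groups were ordered by mean, the ranges of all 10 neighbouring pairs overlapped for Gdf3, Tdgf1 and Acvr2b, and of 6 of the 10 for Skil. The levels below are CPM per library, and a gene is called changed where its adjusted p (edgeR quasi-likelihood test, Benjamini-Hochberg over 17702 genes) was under 0.05.

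**Figure D1:**
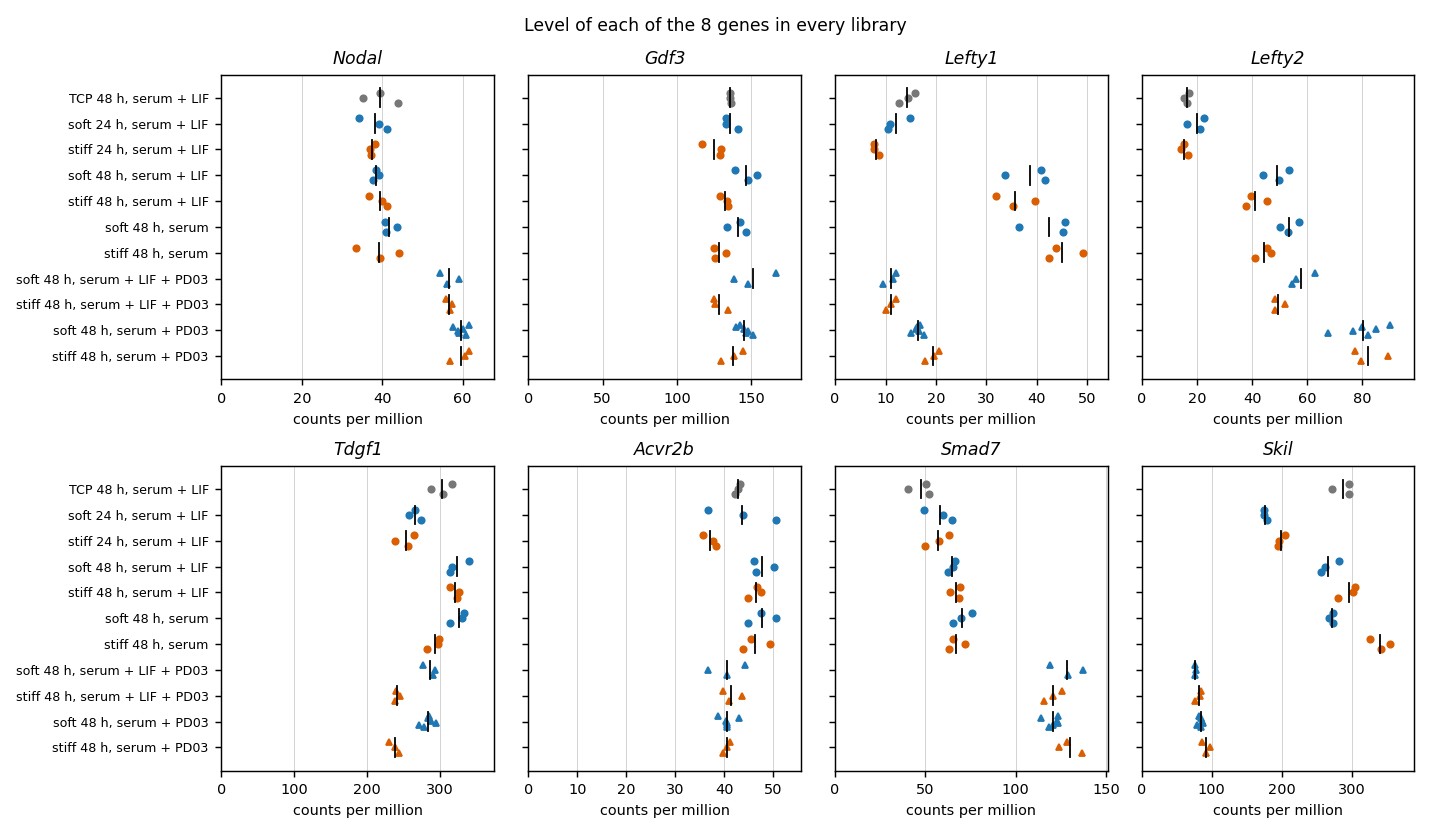
Level of each of the 8 genes in CPM (x axis, linear from 0) in every library of the 11 groups (y axis). Points are libraries, grey for TCP, blue for soft, orange for stiff, triangles for media with PD03, and black ticks are group means. Lefty1 and Lefty2 lie low on TCP and at 24 h, and with PD03 Lefty1 and Skil lie low while Smad7 and Nodal lie high.

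The comparison of both hydrogels with TCP asked which genes differ between a hydrogel and plastic in the same medium. In serum + LIF at 48 h, Lefty1, Lefty2 and Smad7 were higher on soft and on stiff hydrogels than on TCP, while no change was called for the ligands, the receptors or Skil. This was 3 of 8 genes in both comparisons, where 11.8% of all tested genes were called for soft against TCP and 5.54% for stiff against TCP. An unadjusted p under 0.05 in the edgeR test was reached by 7 of the 8 for soft and 3 for stiff. Over all 17702 tested genes it was reached by 4122 and 2989. The median log2 change of the 8 genes was 0.13 for soft and 0.10 for stiff, against medians over all tested genes of -8.52e-05 and 0.000753. The 8 genes were chosen with earlier results of these data known, so these medians are a description and not a test.

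Lefty1, a secreted antagonist that blocks Nodal and its co-receptor, had 12.6, 14.5 and 15.8 CPM on TCP, 41.6, 33.7 and 40.8 on soft and 35.3, 39.6 and 31.98 on stiff substrates. Every hydrogel library lay above every TCP library. The level was 2.72-fold higher on soft (log2 1.44 ± 0.11 SE, adjusted p = 8.28e-15) and 2.496-fold higher on stiff (1.32 ± 0.11, adjusted p = 6.34e-13). Lefty2, its close relative with the same role, had 16.4, 15.3 and 17.1 CPM on TCP, 49.9, 44.1 and 53.6 on soft and 37.8, 45.4 and 39.5 on stiff substrates. Again no hydrogel library reached down to the TCP range. It was 3.03-fold higher on soft (log2 1.60 ± 0.10, adjusted p = 9.10e-18) and 2.52-fold higher on stiff (1.33 ± 0.10, adjusted p = 3.51e-14). Smad7, an inhibitory Smad that blocks the receptors and is itself a target of the pathway, had 51.8, 40.4 and 50.3 CPM on TCP, 62.3, 65.2 and 66.6 on soft and 68.8, 63.5 and 69.1 on stiff substrates. The groups did not overlap, with log2 changes of 0.45 ± 0.08 for soft (adjusted p = 5.64e-05) and 0.50 ± 0.08 for stiff (adjusted p = 1.42e-05).

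The TCP libraries shared their pool with only 1 stiff library, so each stiff library was also set alone against the TCP mean. The lowest and highest of the 3 ratios were 2.24 and 2.77 for Lefty1, 2.33 and 2.79 for Lefty2 and 1.34 and 1.45 for Smad7, so the library of the same pool had a higher level whichever of the 3 it was. With the pool as a term in the model, over all 45 possible assignments of columns to pools, Lefty1 and Lefty2 stayed called in all 45, and Smad7 was called in none of them for soft against TCP (log2 0.25 to 0.56, lowest adjusted p 0.0670) and in all for stiff. The markers of fibroblasts also differed, with 72.9 to 84.4 summed CPM on TCP, 35.8 to 42.9 on stiff and 28.1 to 32.6 on soft substrates, and none of the 6 was at 0 throughout any of these groups. ES cell markers summed to 1657 to 1779 on TCP, 1897 to 1997 on stiff and 2009 to 2107 on soft. The part of these cell type markers in the Lefty and Smad7 results was not tested, and in bulk RNA fewer cells of a type and less RNA per cell cannot be told apart.

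Nodal had 43.9, 35.2 and 39.4 CPM on TCP, 37.8, 39.2 and 38.4 on soft and 41.2, 40.1 and 36.8 on stiff substrates. These ranges overlapped, and the 95% intervals of its log2 difference were -0.19 to 0.11 for soft and -0.16 to 0.14 for stiff. Gdf3 differed from TCP by 0.11 ± 0.05 on soft and -0.04 ± 0.05 on stiff, Tdgf1 by 0.10 ± 0.05 and 0.08 ± 0.05, Acvr2b by 0.16 ± 0.07 and 0.12 ± 0.07, and Skil by -0.11 ± 0.05 and 0.04 ± 0.05, none of them called.

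**Figure D2:**
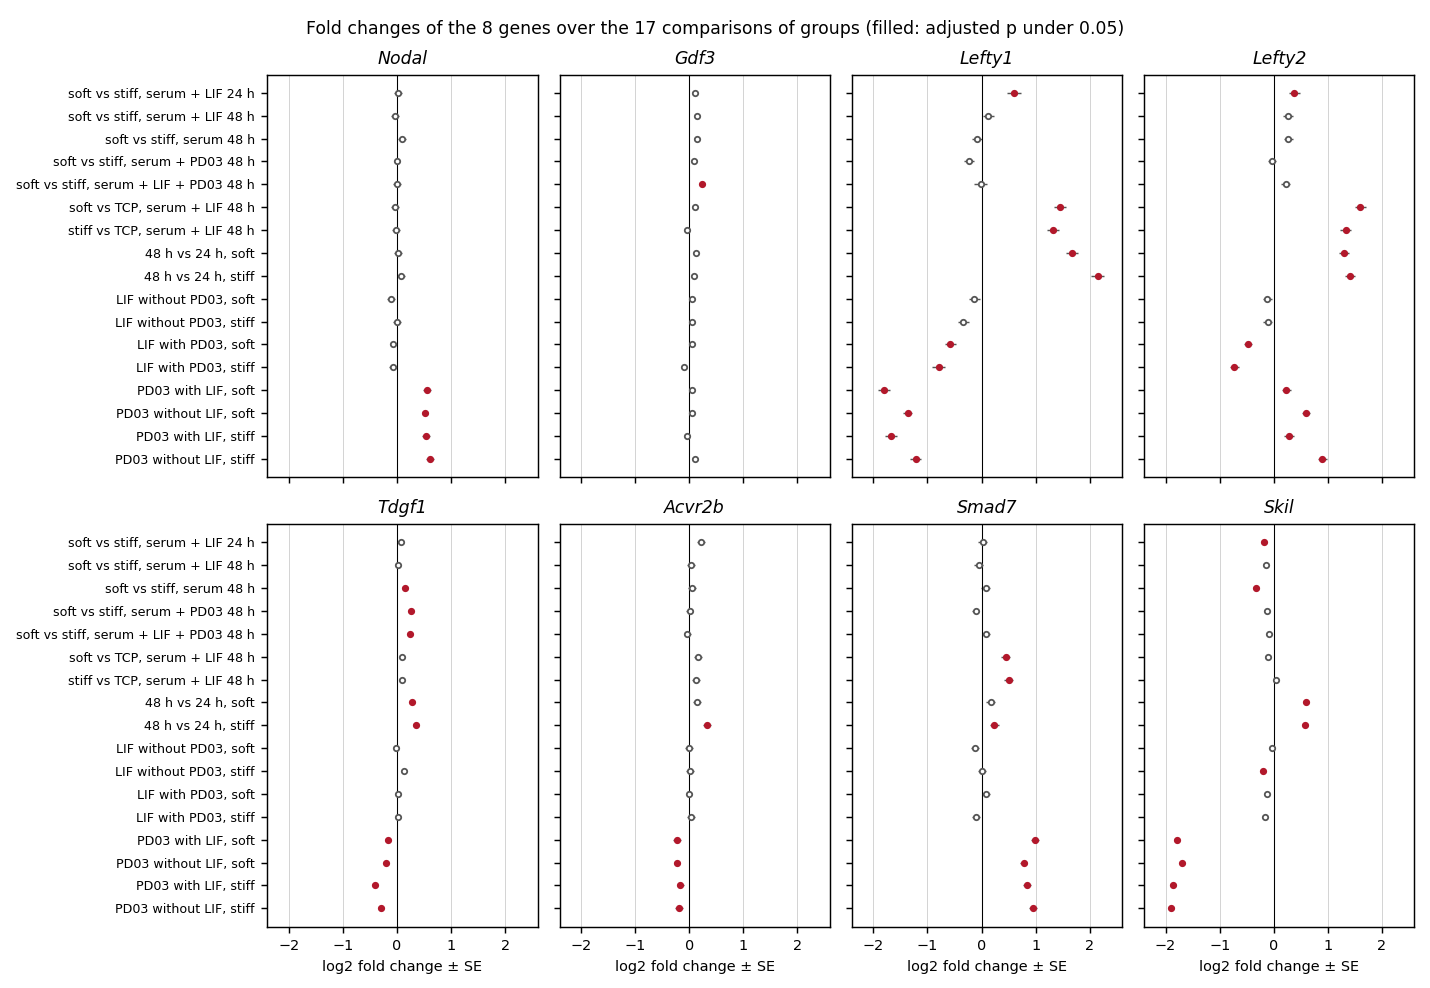
Log2 fold change with its standard error (x axis) for each of the 8 genes in the 17 comparisons of groups (y axis, first group against second). Filled red points have an adjusted p under 0.05 and open points do not. The Lefty genes move most against TCP and with time, and the PD03 comparisons move 7 of the 8 genes, Lefty1 and Lefty2 in opposite directions.

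Soft and stiff hydrogels were compared in 5 settings. At 24 h in serum + LIF, where all libraries came from 1 pool, Lefty1 and Lefty2 were higher and Skil lower on soft substrates, 3 of 8 genes against 3.55% of all tested genes. At 48 h in serum + LIF no gene of the 8 was called, against 0.780% of all genes, and 3 had an unadjusted p under 0.05 (Gdf3, Lefty2 and Skil). DESeq2 likewise called none there. In serum 2 were called (Tdgf1 higher, Skil lower) against 4.85%, in serum + PD03 1 (Tdgf1 higher) against 5.55%, and in serum + LIF + PD03 2 (Tdgf1 and Gdf3 higher) against 7.61%. Most soft and stiff libraries of 48 h were in different pools, so the effects of gel and pool cannot be told apart without assuming that a pool shifts each gene by 1 amount.

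Cell type markers differed between the hydrogels as well. The 6 fibroblast markers summed to less on soft than on stiff substrates in each setting, 26.6 to 38.9 CPM against 53.4 to 60.8 at 24 h, 24.98 to 31.8 against 51.3 to 56.8 in serum, 34.9 to 46.98 against 72.1 to 81.7 in serum + PD03 and 33.7 to 47.8 against 90.8 to 96.5 in serum + LIF + PD03, beside the 48 h values in serum + LIF given above. The 5 ES cell markers summed to more on soft, with 1836 to 2131 against 1698 to 1743 at 24 h, 1954 to 2029 against 1668 to 1771 in serum, 2724 to 3017 against 2584 to 2641 in serum + PD03 and 2776 to 2919 against 2488 to 2539 in serum + LIF + PD03. Neither list overlapped between the hydrogels in these settings. The 6 markers of primitive endoderm also lay lower on soft at 24 h (34.6 to 39.3 against 42.9 to 47.2), as did those of streak and mesoderm (13.2 to 17.5 against 18.3 to 21.99), while 3 neurectoderm markers lay higher (51.4 to 57.2 against 41.5 to 50.2). At 48 h the primitive endoderm sum lay higher on soft in serum + LIF (48.9 to 55.9 against 43.9 to 46.8) and overlapped in serum. It lay lower on soft in serum + PD03 (80.5 to 104 against 116 to 125) and in serum + LIF + PD03 (98.96 to 110 against 129 to 139). Streak and mesoderm sums overlapped in each 48 h medium. Neurectoderm sums lay higher on soft in each 48 h medium but serum + PD03, where they overlapped. Over all libraries Dab2 ranged from 19.5 to 118 CPM, and Gata6, the next highest marker of primitive endoderm, reached 11.6. Of the neurectoderm markers, Pax6 ranged from 2.83 to 42.8 and Sox1 from 8.04 to 17.6, while Neurog2 reached only 0.25. The part of these markers in the differences between soft and stiff was not tested.

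At 24 h Lefty1 had 10.5, 10.8 and 14.7 CPM on soft and 8.74, 7.69 and 7.62 on stiff substrates. The soft libraries lay above the stiff libraries, 1.52-fold on the fitted scale (log2 0.60 ± 0.13, adjusted p = 0.00192). Soft library 3 was the highest, and without it the difference was 0.42 with an adjusted p of 0.113. Lefty2 had 20.9, 16.4 and 22.5 CPM on soft against 16.7, 14.3 and 15.1 on stiff substrates, and 1 soft library lay inside the stiff range. Its difference of 0.38 ± 0.11 (adjusted p = 0.0305) lost its call without soft library 1 (0.35), without soft library 3 (0.27, adjusted p = 0.274), without stiff library 2 (0.33) and without stiff library 3 (0.37). Skil, a co-repressor that binds Smad complexes on their target genes, had 180, 175 and 175 CPM on soft against 194, 197 and 205 on stiff substrates. These did not overlap, but the difference of -0.17 ± 0.05 (adjusted p = 0.0306) lost its call when any of the 6 libraries was left out (-0.19 to -0.15, highest adjusted p 0.200). Acvr2b, a type II activin receptor, was called only when soft library 3 was left out (log2 0.35 in place of 0.22 ± 0.07).

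At 48 h neither Lefty gene was called between the hydrogels in any medium. In serum + LIF the log2 difference was 0.12 ± 0.10 for Lefty1 and 0.27 ± 0.09 for Lefty2 (adjusted p = 0.176), and with no filter on low counts Lefty2 was called there (0.28, adjusted p = 0.0221). In serum Lefty1 was at 45.2, 36.4 and 45.6 CPM on soft and 42.3, 49.1 and 43.7 on stiff substrates, which overlap, and Lefty2 at 52.9, 50.1 and 57.0 against 40.9, 47.0 and 45.6, which do not, with a log2 difference of 0.27 ± 0.09 and an adjusted p of 0.0562. Lefty2 was called there without stiff library 2 (0.32, adjusted p = 0.0394), with no filter (0.25, adjusted p = 0.0232), in a fit to only the libraries compared (0.27, adjusted p = 0.0339) and at the highest value with the pool as a term (0.45, adjusted p = 0.0235). In serum + LIF + PD03 its difference was 0.22 ± 0.08 (adjusted p = 0.0980), called in a fit to only the libraries compared (0.22, adjusted p = 0.0286) and at the highest value with the pool as a term (0.41, adjusted p = 0.0284). In serum + PD03 Lefty1 lay lower on soft, 15.01 to 17.6 CPM with a median of 16.4, than on stiff substrates, 17.9, 19.5 and 20.7, but the log2 difference of -0.24 ± 0.10 was not called (adjusted p = 0.153), except in a fit to only the libraries compared (-0.25, adjusted p = 0.0454). The change of the soft to stiff difference between 24 h and 48 h was itself tested, at -0.48 ± 0.16 for Lefty1 (adjusted p = 0.236) and -0.11 ± 0.14 for Lefty2 (adjusted p = 0.844), neither called.

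Tdgf1, the co-receptor also known as Cripto, was called in 3 of the 5 comparisons of soft with stiff, more than any other of the 8. In serum + PD03 it had 271 to 295 CPM with a median of 285 on soft and 244, 239 and 231 on stiff substrates. In serum + LIF + PD03 it had 290, 293 and 276 on soft against 239, 246 and 240 on stiff. In serum it had 314, 330 and 334 on soft against 282, 298 and 299 on stiff. Soft libraries lay above stiff libraries in all 3 media, with log2 differences of 0.25 ± 0.04 (adjusted p = 1.05e-05), 0.25 ± 0.05 (adjusted p = 0.000131) and 0.15 ± 0.05 (adjusted p = 0.0341). In serum + LIF no difference was called (0.01 ± 0.05, interval -0.08 to 0.10). With the pool as a term, Tdgf1 was called in all 45 assignments in serum + PD03, in 27 in serum + LIF + PD03 and in none in serum. The serum call was also lost without stiff library 1 (0.12), stiff library 3 (0.16), soft library 2 (0.14) or soft library 3 (0.14), and with median-ratio size factors (adjusted p = 0.0554), no filter (adjusted p = 0.254) and only the libraries compared (adjusted p = 0.130).

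Gdf3, a ligand of the same receptors, had 148, 139 and 166 CPM on soft and 134, 126 and 125 on stiff substrates in serum + LIF + PD03. The ranges did not overlap and the log2 difference was 0.24 ± 0.05 (adjusted p = 0.00220). Without soft library 3, the highest, it was 0.16 with an adjusted p of 0.121, and with the pool as a term it was called in 9 of 45 assignments. In the other 4 settings Gdf3 differed by 0.08 to 0.15 in the same direction and was not called. Skil was lower on soft substrates in serum, with 274, 267 and 274 CPM against 342, 354 and 327 on stiff substrates. No library overlapped, and the log2 difference was -0.33 ± 0.05 (adjusted p = 3.06e-06), called under all 45 assignments of pools. In the other 48 h media Skil differed by -0.15 to -0.09 and was not called, although in serum + PD03 it was called when stiff library 3 was left out (-0.17, adjusted p = 0.0390) and in a fit to only the libraries compared (-0.14, adjusted p = 0.0469). For Nodal, the 5 log2 differences between soft and stiff were between -0.03 and 0.09, each with an SE of 0.06 to 0.07 and none called. Smad7 and Acvr2b were not called in any of the 5.

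The time comparison set 48 h against 24 h in serum + LIF. Lefty1 rose 3.18-fold on soft (log2 1.67 ± 0.11, adjusted p = 9.14e-16) and 4.43-fold on stiff substrates (2.15 ± 0.12, adjusted p = 3.32e-20). Lefty2 rose 2.46-fold on soft (1.30 ± 0.10, adjusted p = 2.51e-14) and 2.66-fold on stiff (1.41 ± 0.10, adjusted p = 2.88e-16). Skil rose by 0.60 ± 0.05 and 0.57 ± 0.05 and Tdgf1 by 0.28 ± 0.05 and 0.34 ± 0.05 on the log2 scale. On stiff substrates Acvr2b (0.32 ± 0.07, adjusted p = 0.000617) and Smad7 (0.24 ± 0.08, adjusted p = 0.0178) rose as well. In all, 4 of 8 genes were called on soft substrates against 24.4% of all tested genes, and 6 of 8 on stiff against 25.6%, every one of them higher at 48 h. On stiff substrates fibroblast markers summed to 53.4 to 60.8 CPM at 24 h and 35.8 to 42.9 at 48 h, and ES cell markers to 1698 to 1743 and 1897 to 1997. On soft substrates these sums overlapped between the times, while primitive endoderm markers went from 34.6 to 39.3 at 24 h to 48.9 to 55.9 at 48 h. The part of the markers in the changes over time was not tested.

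Nodal itself was at 41.2, 39.3 and 34.2 CPM at 24 h and 37.8, 39.2 and 38.4 at 48 h on soft substrates, and at 37.2, 36.9 and 38.2 and then 41.2, 40.1 and 36.8 on stiff substrates. Its log2 change was 0.02 ± 0.08 and 0.07 ± 0.07. The mean of Lefty1 at 24 h was 12.01 CPM on soft and 8.02 on stiff substrates, against 14.3 on TCP at 48 h, and every stiff 24 h library lay below the TCP libraries. For Lefty2 these means were 19.9, 15.4 and 16.2. The 24 h and TCP groups were not set against each other in a test. The 24 h libraries were all in the first pool and the 48 h libraries were not, apart from 1 stiff library. Each of the 3 stiff 48 h libraries alone was 3.99 to 4.94 times the stiff 24 h mean for Lefty1 and 2.46 to 2.95 times for Lefty2, and for Skil 1.41 to 1.53 times. With the pool as a term Lefty1, Lefty2 and Skil stayed called in all 45 assignments on both substrates. Tdgf1 on soft substrates was called in 10, Acvr2b on stiff in 30 and Smad7 on stiff in none. On soft substrates Acvr2b and Smad7 were called when soft 24 h library 1 was left out (0.26 for each), and Gdf3 when soft 48 h library 3 was (0.17). The Smad7 call on stiff was also lost without stiff 24 h library 1 (0.16), stiff 48 h library 1 (0.22) or stiff 48 h library 3 (0.22).

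PD03 was compared with its absence on each hydrogel, with LIF and without it. Between 54.4% and 57.5% of all tested genes were called in these 4 comparisons (54.4% with LIF on soft, 57.5% without LIF on soft, 56.2% with LIF on stiff and 55.8% without LIF on stiff). In each of them 7 of the 8 genes were called, which is to be read against those shares. Nodal, Lefty2 and Smad7 were higher with PD03, Lefty1, Skil, Tdgf1 and Acvr2b lower, and Gdf3 was not called, with log2 changes of -0.04 to 0.11, although on stiff without LIF it was called without stiff serum library 2 (0.14) or stiff serum + PD03 library 1 (0.16). The comparisons on soft with LIF and on stiff without LIF each lay within 1 pool. The calls of the 8 genes were the same in all 4, and so were the directions of the 7 that were called.

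Nodal was at 33.6 to 44.2 CPM in all libraries without PD03 and at 54.4 to 61.7 in those with it. No library with PD03 reached down to the others. Its log2 change was 0.56 ± 0.07 on soft with LIF, 0.52 ± 0.06 on soft without LIF, 0.53 ± 0.07 on stiff with LIF and 0.61 ± 0.07 on stiff without LIF, with a largest adjusted p of 6.59e-09. Smad7 was at 40.4 to 75.6 CPM without and at 114 to 137 with PD03. It rose by 0.99 ± 0.08, 0.78 ± 0.06, 0.85 ± 0.08 and 0.96 ± 0.07 in the same order, close to a doubling.

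Skil was at 76.2 to 97.0 CPM in the libraries with PD03 and at 175 to 354 in those without it. Its fall was the largest of the 8 on stiff substrates, at -1.86 ± 0.05 with LIF and -1.89 ± 0.05 without, and it was -1.80 ± 0.05 and -1.69 ± 0.04 on soft. In absolute size these changes were above those of 91.5% to 92.3% of all tested genes. Lefty1 fell by 1.81 ± 0.11 on soft with LIF and by 1.67 ± 0.11 on stiff with LIF, and without LIF by 1.37 ± 0.09 on soft and by 1.21 ± 0.10 on stiff. On soft substrates with LIF it went from 33.7 to 41.6 CPM without PD03 to 9.57 to 12.2 with it.

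Lefty2 went the other way. With LIF it had 54.6, 55.9 and 62.8 CPM with PD03 on soft against 49.9, 44.1 and 53.6 without, and 48.5, 51.9 and 48.3 on stiff against 37.8, 45.4 and 39.5. The ranges did not overlap, but they were close. Without LIF it had 67.6 to 89.9 CPM with a median of 81.1 on soft with PD03 against 52.9, 50.1 and 57.0 without, and 79.6, 89.4 and 77.2 on stiff against 40.9, 47.0 and 45.6. The log2 changes were 0.23 ± 0.09 on soft with LIF (adjusted p = 0.0181), 0.28 ± 0.09 on stiff with LIF (adjusted p = 0.00546), 0.59 ± 0.07 on soft without LIF (adjusted p = 5.91e-10) and 0.89 ± 0.08 on stiff without LIF (adjusted p = 3.18e-13). The first of these lost its call without soft serum + LIF library 2 or soft serum + LIF + PD03 library 3 (0.16 in each case).

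The ratio of Lefty2 to Lefty1 counts was looked at after these values were seen and is given without a test. It averaged 0.989 to 1.27 in the 4 groups on hydrogels at 48 h without PD03, 1.15 on TCP, and 1.68 and 1.92 on soft and stiff substrates at 24 h. In the 4 groups with PD03 it averaged 4.26 to 5.25, and the lowest library with PD03 (3.73) was above the highest without it (2.0). When the counts of both genes were summed, because reads from their shared stretches could have been placed in either, the pair changed with PD03 by -0.35 ± 0.08 on soft with LIF, by 0.02 ± 0.07 on soft without LIF, by -0.33 ± 0.08 on stiff with LIF and by 0.19 ± 0.08 on stiff without LIF. The summed pair was called in all but the second of these.

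**Figure D3:**
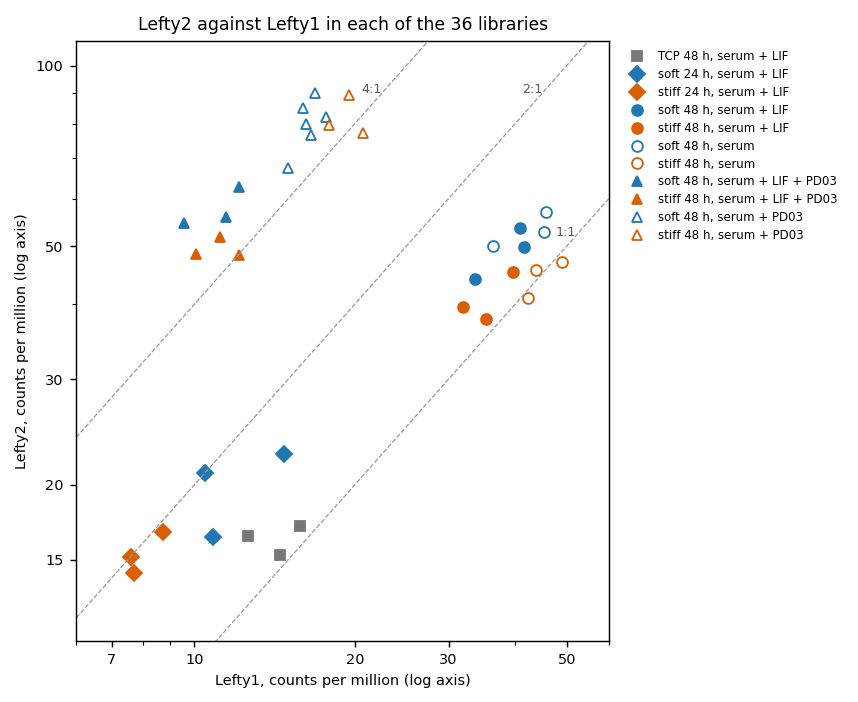
Lefty2 (y axis) against Lefty1 (x axis) in CPM, both on log axes, for each of the 36 libraries. Symbols are squares for TCP, diamonds for 24 h, circles for 48 h and triangles for PD03, blue for soft and orange for stiff, and open without LIF. Dashed lines mark ratios of 1, 2 and 4. Libraries with PD03 lie near the line of ratio 4, with ratios of 3.73 to 5.71.

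Tdgf1 was lower with PD03 by 0.18 ± 0.05 on soft with LIF, 0.20 ± 0.04 on soft without, 0.41 ± 0.05 on stiff with and 0.30 ± 0.05 on stiff without, all on the log2 scale and all called. Acvr2b fell by 0.23 ± 0.07, 0.23 ± 0.06, 0.16 ± 0.07 and 0.19 ± 0.07 in the same order. The stiff Acvr2b calls had adjusted p-values of 0.0493 and 0.0265, and DESeq2 did not call the first (adjusted p = 0.0878). On stiff substrates with LIF 5 of the 6 single libraries took the call with them when left out (all but serum + LIF + PD03 library 2, adjusted p up to 0.218), and without LIF 4 of the 6 did (serum library 2 and all serum + PD03 libraries, adjusted p up to 0.183). On soft with LIF the call was lost without serum + LIF + PD03 library 2 (adjusted p = 0.0621).

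Levels of cell type markers also moved with PD03. ES cell markers summed to 2488 to 3017 CPM with it and 1657 to 2131 without, and 6 primitive endoderm markers to 80.5 to 139 and 34.6 to 55.9. The 6 markers of primitive streak and mesoderm summed to 4.57 to 7.92 with PD03 and 12.9 to 21.99 without, and 3 neurectoderm markers to 11.8 to 16.7 and 32.9 to 57.2. Fibroblast markers summed to 90.8 to 96.5 CPM with PD03 against 35.8 to 42.9 without on stiff substrates with LIF, 72.1 to 81.7 against 51.3 to 56.8 on stiff without LIF, 33.7 to 47.8 against 28.1 to 32.6 on soft with LIF and 34.9 to 46.98 against 24.98 to 31.8 on soft without LIF. In both stiff groups with PD03, 1 marker of streak and mesoderm was at 0 in all libraries. Over all libraries Dab2, of the primitive endoderm list, ranged from 19.5 to 118 CPM, and Pax6, of the neurectoderm list, from 2.83 to 42.8. Of the ES cell list, Nanog ranged from 168 to 903 CPM and Esrrb from 240 to 505. Pou5f1 ranged from 474 to 695, Zfp42 from 394 to 584 and Sox2 from 239 to 369. Single genes can therefore carry much of these sums. The part of these markers in the PD03 results was not tested.

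**Figure D4:**
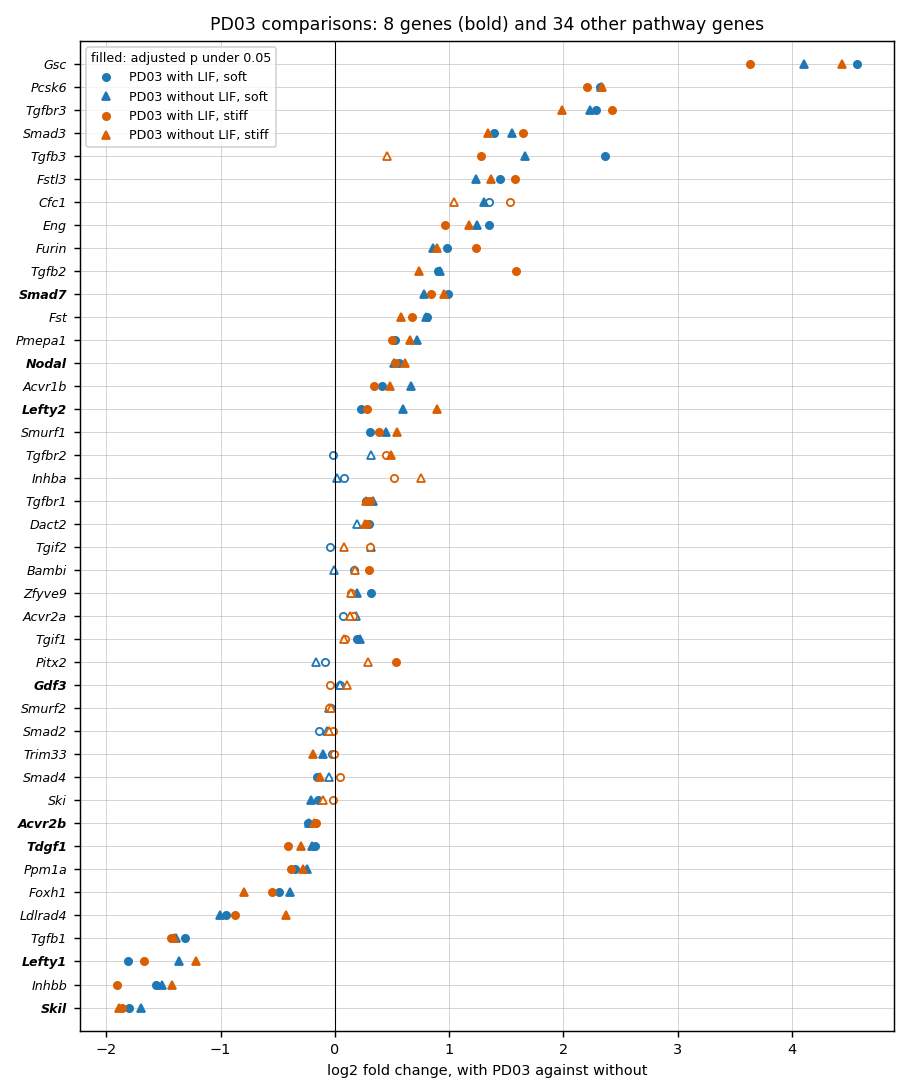
Log2 fold change with PD03 against without (x axis) for the 8 genes (bold) and 34 of the 35 other tested genes of the pathway (y axis, ordered by median), with 1 point for each of the 4 comparisons. Blue is soft, orange stiff, circles with LIF, triangles without, and filled points have an adjusted p under 0.05. Skil and Lefty1 lie at the low end with Inhbb and Tgfb1, and Smad7 and Nodal lie with the genes that rose.

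LIF was compared with its absence at 48 h. Without PD03, LIF moved few genes, with 0.0169% of all tested genes called on soft and 1.41% on stiff substrates. Of the 8 none was called on soft (edgeR, and DESeq2 also called none, and none had an unadjusted p under 0.05), and Skil alone was called on stiff, lower with LIF by 0.20 ± 0.05 (281, 302 and 305 CPM against 342, 354 and 327, adjusted p = 0.0134). That call was lost without stiff serum + LIF library 1 (-0.18) or stiff serum library 2 (-0.18), and it held in 30 of the 45 assignments of pools. Lefty1 on stiff substrates was at 35.3, 39.6 and 31.98 CPM with LIF and 42.3, 49.1 and 43.7 without, a difference of -0.34 ± 0.10 that was not called (adjusted p = 0.0664). It was called when stiff serum + LIF library 2 was left out (-0.44, adjusted p = 0.0347), with no filter on low counts (-0.36, adjusted p = 0.00666) and in a fit to only the libraries compared (-0.33, adjusted p = 0.0426), which in turn did not call Skil (adjusted p = 0.0580). On stiff substrates fibroblast markers summed to 35.8 to 42.9 CPM with LIF and 51.3 to 56.8 without, and ES cell markers to 1897 to 1997 and 1668 to 1771. Their part in these differences was not tested.

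With PD03 present, both Lefty genes were lower with LIF than without it, and none of the other 6 genes was called, apart from Skil on stiff in a fit to only the libraries compared (-0.18, adjusted p = 0.0337). This was 2 of 8 genes on soft, where 0.107% of all tested genes were called, and 2 of 8 on stiff, where 0.514% were. On soft, Lefty1 had 9.57, 11.5 and 12.2 CPM with LIF against 15.01 to 17.6 without, and Lefty2 54.6, 55.9 and 62.8 against 67.6 to 89.9. On stiff, Lefty1 had 10.1, 11.2 and 12.1 against 17.9, 19.5 and 20.7, and Lefty2 48.5, 51.9 and 48.3 against 79.6, 89.4 and 77.2. No library with LIF reached the range without it in these 4 cases. The log2 changes were -0.57 ± 0.10 (adjusted p = 0.00470) and -0.48 ± 0.07 (adjusted p = 0.000410) on soft and -0.80 ± 0.11 (adjusted p = 3.90e-05) and -0.73 ± 0.08 (adjusted p = 1.54e-07) on stiff, and the stiff comparison lay within 1 pool. The call for Lefty1 on soft was lost without soft serum + LIF + PD03 library 1 (-0.47, adjusted p = 0.112). Whether the LIF difference of the Lefty genes changed with PD03 was not tested.

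Differences of the soft to stiff difference between media or times were tested as interactions. Among the 8 genes edgeR called none, against 0.797% of all tested genes for PD03 without LIF, 1.07% for PD03 with LIF, 0.0847% for LIF without PD03 and 0.254% for time. The counts at an unadjusted p under 0.05 were 2, 1, 2 and 1. DESeq2 called Skil for PD03 without LIF (0.21) and Tdgf1 for PD03 with LIF (0.23), where edgeR gave 0.20 ± 0.07 (adjusted p = 0.150) and 0.23 ± 0.06 (adjusted p = 0.0588). DESeq2 gave these adjusted p-values of 0.0115 and 0.0257 for Tdgf1 and Skil.

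Of 38 other genes of the pathway, 35 entered the test, all but Gdf1, Cer1 and Acvr1c. Tgfb2, a ligand of the TGF-beta receptors, was lower on soft than on stiff substrates in all 5 settings, on the log2 scale by 1.096 ± 0.14 at 24 h and, at 48 h, by 0.65 ± 0.16 with LIF, by 1.20 ± 0.14 with neither factor, by 1.02 ± 0.11 with PD03 alone and by 1.33 ± 0.12 with both. The second of these lost its call when any of the 6 libraries compared but soft library 2 was left out (-0.74 to -0.49), and it was called in none of the 45 assignments of pools. Tgfb2 was also lower on hydrogels than on TCP, by 2.16 ± 0.15 on soft and 1.51 ± 0.13 on stiff, with mean levels of 4.13, 6.53 and 18.4 CPM. Inhbb, the activin beta B subunit, was higher on soft at 24 h (0.32 ± 0.09), in serum (0.52 ± 0.10) and in serum + PD03 (0.43 ± 0.11), and higher on soft and stiff than on TCP (0.66 ± 0.10 and 0.71 ± 0.10). Its 24 h call was lost without stiff library 1 (0.31), stiff library 2 (0.29) or soft library 1 (0.24), its serum + PD03 call without stiff library 1 (0.41) or stiff library 2 (0.38), and with the pool as a term it was called in 9 of 45 assignments in serum, in 9 in serum + PD03 and in 6 for soft against TCP. Counts of the 35 called higher and lower were 1 and 2 for soft against stiff at 24 h, then at 48 h 0 and 1 with LIF, 2 and 2 with neither factor, 3 and 4 with PD03 alone and 2 and 5 with both, and 2 and 8 for soft against TCP and 2 and 4 for stiff against TCP.

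With PD03, 17 of the 35 were higher and 7 lower on soft with LIF, 18 and 7 on soft without, 18 and 5 on stiff with, and 16 and 7 on stiff without. The median log2 change of the 35 was 0.20, 0.22, 0.35 and 0.29, against -0.0104 to 0.00873 over all tested genes. This list was also chosen with earlier results known, so its medians are a description. The largest rise in each of the 4 was that of Gsc, a homeobox target of Nodal signalling. It went from means of 0.128 to 0.190 CPM to 2.38 to 3.71, by 3.63 to 4.57 on the fitted log2 scale. The groups compared had 1 to 7 counts of Gsc per library without PD03, and its lowest level over all libraries was 0 CPM. Pcsk6, a convertase that processes Nodal precursors, rose from 49.4 to 55.2 CPM to 249 to 274, by 2.21 to 2.34. Tgfbr3, a TGF-beta co-receptor, rose by 2.23 ± 0.13 on soft without LIF, 2.43 ± 0.15 on stiff with LIF and 1.99 ± 0.14 on stiff without LIF. Inhbb fell by 1.56 ± 0.10, 1.52 ± 0.09, 1.91 ± 0.11 and 1.43 ± 0.11 and the ligand Tgfb1 by 1.31 ± 0.13, 1.39 ± 0.11, 1.43 ± 0.13 and 1.41 ± 0.13. For LIF, counts called higher and lower were 0 and 0 on soft in both media, 1 and 2 on stiff without PD03 and 0 and 1 on stiff with it. For time they were 3 and 11 on soft and 4 and 10 on stiff.

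The genes with a pattern most like each of the 8 were taken by the Pearson correlation of group means of log2 CPM, among 10048 genes with a mean of at least 5 CPM, as a description. Over the 11 groups the first for Lefty2 was Fdft1 (r = 0.968), for Gdf3 Enah (0.926), for Tdgf1 Mdc1 (0.967) and for Acvr2b Actr8 (0.937). For Nodal (Reck, 0.996), Smad7 (Pgd, 0.994) and Skil (Gemin5, 0.997) the order rests on PD03, and 18.5%, 13.9% and 18.3% of the genes had r above 0.9. Over the 7 groups without PD03 the first were Tfb1m for Nodal (0.965), Cdca2 for Gdf3 (0.973), Apobec2 for Lefty1 (0.996), Taf1c for Lefty2 (0.996), Dna2 for Tdgf1 (0.998), Slc39a6 for Acvr2b (0.996), Rab35 for Smad7 (0.982) and Ldha for Skil (0.995).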

How the data were processed

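RNA was extracted with a DNase step and sequenced by the authors, who aligned reads with STAR 2.5.2a to GRCm38 and deposited raw counts per Ensembl gene made with htseq-count. Whether counting used strand, and what was done with multiply mapped reads, is not given in the sources used here. From these counts the genes and other lists were taken by name, and both members and lists were chosen with earlier results of these data known. CPM used TMM-scaled library sizes, and RPKM also the length of merged exons. The test was the quasi-likelihood test of edgeR 4.0.16 (R 4.3.3) with 1 mean per group over all 36 libraries, after filterByExpr left 17702 genes holding 99.92% of counts, with Benjamini-Hochberg adjustment and a threshold of 0.05. Fold changes are log2 with standard errors. The test was also run on simulated counts with known changes in the soft against stiff comparison in serum. These counts held no pool effect, so they cannot show how the test behaves with the pools of these data. Library numbers follow the order of columns and are only names. Total counts of 10405696 to 26635239 limit precision most for the lowest genes. Replicate pairs differed by more than counting noise (chi-square per gene 2.27 to 14.6).

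Alternatives were median-ratio size factors, no filter, DESeq2 1.42.0, a fit to only the libraries compared, leaving out each library, summed Lefty counts, and pool as a term over the 45 assignments the descriptions allow. All 8 genes were named, and of the other pathway genes at most the 3 called with the largest change per direction and comparison. For each gene of the 8 the 3 genes with the most similar pattern were found and the first is given. A few results that fell under these rules, and a sequence, are not reported here.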

Additional observations from a re-analysis of the deposited data

Results flagged for a closer look

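For a pair of pathway genes outside the 8, the soft to stiff difference itself differed between media (edgeR interaction term). Foxh1, the DNA-binding partner of Smad2 and Smad3, differed by 0.40 ± 0.08 on the log2 scale between serum + PD03 and serum (adjusted p = 0.00773). Its mean was 71.4 CPM on soft and 83.0 on stiff in serum, and 54.3 and 47.9 in serum + PD03. The call was lost without stiff serum library 2 (0.31, adjusted p = 0.0933) or soft serum library 2 (0.34, adjusted p = 0.0833). Eng, a TGF-beta co-receptor, differed by 0.39 ± 0.09 between serum + LIF + PD03 and serum + LIF (adjusted p = 0.00966), with 27.5 CPM on soft and 31.5 on stiff in serum + LIF and 70.2 and 61.3 with PD03. Its call was lost in the fits without stiff serum + LIF library 1 (0.36) or 2 (0.34), soft serum + LIF library 2 (0.37) or 3 (0.32), stiff serum + LIF + PD03 library 3 (0.35) or soft serum + LIF + PD03 library 2 (0.34), and with no filter on low counts (0.36, adjusted p = 0.0799), and held in 34 of the 45 assignments of pools. No library of the 6 for soft substrates in serum + PD03 stood apart for any of the 8 genes by Dixon's test.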

How the results depend on the processing

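No paired analysis was possible because the columns carry no replicate numbers. The cause of the changes below was not tested. Of the 8 genes, median-ratio size factors called 1 in soft against stiff in serum (main 2). With no filter, 1 was called in serum + LIF at 48 h (main 0) and 2 for LIF without PD03 on stiff (main 1), and pathway genes came to 0 for LIF with PD03 on stiff (main 1) and 1 for stiffness by LIF (main 0). DESeq2 called 1 of the 8 in each stiffness by PD03 interaction (main 0), and 5 pathway genes at 24 h (main 3) and 2 in serum + LIF at 48 h (main 1). Fitting only the libraries compared called 1 of the 8 at 24 h (main 3) and 3 in serum + PD03 (main 1), and pathway genes came to 0 in serum + LIF at 48 h (main 1), 2 in serum (main 4), 6 for soft against TCP (main 10) and 2 for LIF with PD03 on stiff (main 1). With pool as a term, over the assignments, the 8 gave as few as 1 in serum (main 2), 0 in serum + LIF + PD03 (main 2), and 0 to 2 for LIF without PD03 on stiff (main 1). Pathway genes reached 5 at 24 h (main 3), 0 in serum + LIF at 48 h (main 1), as few as 1 in serum (main 4), 2 in serum + PD03 (main 7), 1 to 4 in serum + LIF + PD03 (main 7), 1 to 3 for soft against TCP (main 10), as few as 2 for stiff against TCP (main 6), 1 for LIF without PD03 on stiff (main 3), 0 to 3 for time on soft (main 14), 5 for time on stiff (main 14), and 0 to 2 for stiffness by PD03 with LIF (main 1). Under it the log2 change turned sign for Inhba in soft against TCP (0.67 from -3.17) and for time on soft for Tgfbr2 (0.35 from -0.75), Tgfb2 (0.0025 from -0.67) and Tgfbr1 (-0.012 from 0.19). With PD03 the summed Lefty pair had the sign opposite to Lefty1 without LIF (0.0175 on soft, 0.19 on stiff). With LIF it had the sign opposite to Lefty2 (-0.35 on soft, -0.33 on stiff). Because Lefty1 and Lefty2 moved in opposite directions, the sum had to differ in sign from 1 of them, so it does not show that either gene turned.

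Leaving out each library in turn gave, for the 8 genes, 1 to 2 calls at 24 h, 1 to 3 in serum, 1 to 2 in serum + PD03, 1 to 2 in serum + LIF + PD03, 4 to 6 for time on soft, 0 to 2 for LIF without PD03 on stiff and 1 to 2 for LIF with PD03 on soft. Pathway genes ranged from 2 to 5 at 24 h, 0 to 1 in serum + LIF at 48 h, 2 to 4 in serum, 2 to 7 in serum + PD03, 4 to 7 in serum + LIF + PD03, 6 to 8 for soft and 4 to 5 for stiff against TCP, 9 to 13 for time on soft, 10 to 15 for time on stiff, 1 to 4 for LIF without PD03 on stiff, 0 to 0 for LIF with PD03 on stiff, 0 to 1 for stiffness by PD03 without LIF, 0 to 2 with LIF, 0 to 1 by LIF and 0 to 1 by time. No called change of the 8 turned sign in these fits.

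Over all genes, soft against stiff in serum + LIF at 48 h gave 138 calls, 266 with no filter, 233 with DESeq2 and 81 from only the libraries compared. LIF without PD03 gave 3 on soft (46 with no filter, 39 with DESeq2) and 249 on stiff (381 with no filter). LIF with PD03 gave 19 on soft (73 and 38) and 91 on stiff (141 with no filter, 417 from only the libraries compared). Stiffness by PD03 without LIF gave 141 (222 and 338), by LIF 15 (173 and 122, and 1 from only the libraries compared) and by time 45 (189 and 89). Median-ratio factors moved the share called higher for stiffness by LIF from 73.3% to 85.7%. With pool as a term all-gene calls for soft against stiff came to 0 to 41 in serum + LIF at 48 h, 173 to 384 in serum (main 858), as few as 276 in serum + PD03 (main 982) and 246 to 724 in serum + LIF + PD03 (main 1348). Against TCP they came to 126 to 445 for soft (main 2083) and 225 to 431 for stiff (main 981), and for time to 345 to 813 on soft (main 4315) and 2219 to 2431 on stiff (main 4535). The lowest was 7 for LIF with PD03 on soft, 109 for LIF without PD03 on stiff, 76 for stiffness by PD03 without LIF, and 0 for stiffness by LIF and by time.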
